A study of Danio rerio with 3 samples.

Results

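Cadherins and protocadherins were followed in the zebrafish hindbrain and the tissues around it, as all genes whose symbol in the count tables starts with *cdh* or *pcdh* followed by a digit. The rule took 90 of 27282 genes and used no measured value. Of these, 85 had at least 1 unique molecular identifier (UMI, a counted mRNA molecule) and 5 had none in any cell (*cdh24a*, *cdh28*, *cdh29*, *cdh30* and *pcdh2ab2*). Single cells had been sequenced from wild-type embryos of the LondonAB strain at 16, 24 and 44 hours post-fertilisation (hpf), grown at 25, 28.5 and 25 °C. Each stage was 1 library of about 40 pooled tissues, dissociated with papain, kept in a solution free of calcium and counted from the 3′ ends of transcripts. There were thus no replicates and no tests between stages or cell types, and stage cannot be told apart from library, sequencing run and growth temperature.

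Cadherins are adhesion molecules of the cell surface whose extracellular repeats bind calcium and hold neighbouring cells together, with a preference for partners that carry the same cadherin. Classical cadherins bind p120 and beta-catenin inside the cell and through alpha-catenin reach the actin cytoskeleton, whereas protocadherins lack the catenin-binding tail and adhere more weakly. In the nervous system, *cdh2* (N-cadherin) holds the neuroepithelium together, type II cadherins such as *cdh6*, *cdh8* and *cdh11* mark groups of neurons and mesenchyme, δ-protocadherins act in cell movement and axon growth, and clustered protocadherins give neurons individual surface identities.

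Expression levels are pooled over the cells of a group, as a gene's UMI total relative to the group's total over all genes (CPM, counts per 1000000). Brackets after a level, ratio or share hold its 95% interval, which covers counting error only and neither differences between embryos nor between libraries. A gene was measured in a comparison if it had at least 30 UMIs in both groups together, and ratios of at least 2, or at most 0.5, were counted as at least 2-fold higher or lower. Levels are compared between groups and not between genes, since counts from the 3′ end depend on each gene model.

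The libraries held 2929, 2568 and 3529 cells at 16, 24 and 44 hpf, of which 2725, 2337 and 3097 were kept, and the median cell of the whole libraries had 9844, 8176.5 and 2727 UMIs. The libraries shared 8 to 18 cell barcodes in pairs. Clusters were named from markers that included no cadherin or protocadherin, with members kept out of the genes used for clustering. Progenitor-like cells numbered 1647, 773 and 917 at the successive stages and neuron-like cells 122, 312 and 911. Neural crest-like cells (353) were found at 16 hpf, epidermis-like cells at 16 hpf (221) and 24 hpf (139), and other non-neural cells at all stages (354, 384 and 392), which were head mesenchyme-like, cardiopharyngeal mesoderm-like or without a name. Cranial ganglia-like cells (116 and 139) and otic-like cells (40 and 24) were found at 24 and 44 hpf. No cluster was neural crest-like at 24 or 44 hpf or epidermis-like at 44 hpf, and 551 and 714 neural cells of 24 and 44 hpf had no name.

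A small number of members made up most of the family's mRNA. All members together had 40940 UMIs, of which 95.4% came from the 18 members that had at least 10 CPM and 20 UMIs in some group. The 26 *cdh* genes had 22898 UMIs, the 18 protocadherins outside the gene clusters 16763, the 21 genes of the *pcdh1* cluster 1018 and the 25 genes of the *pcdh2* cluster 261. Another 32 members had 1 to 9 UMIs in all and 30 had 10 to 99, so most of the family lay near the limit of detection. Among the 72 members outside the named ones the highest count was 152 UMIs, for *pcdh11.1*, an entry beside *pcdh11* (118 UMIs) with which reads may be shared. The number of members with a UMI was 62 at 16 hpf, 74 at 24 hpf and 76 at 44 hpf. It was 20, 19 and 16 for the *cdh* genes and 17, 17 and 16 for the protocadherins outside the clusters. Only the *pcdh1* cluster (16, 19 and 21) and the *pcdh2* cluster (9, 19 and 23) rose, at low counts per gene. The library of 44 hpf held the fewest UMIs, and these numbers were not set against all genes. Cells removed for high or low content held 7.26%, 21.4% and 26.7% of member UMIs at the successive stages. This was close to their 6.48%, 20.6% and 26.9% of all UMIs. Some members lost more. At 24 hpf *cdh1* and *cdh5* kept only 533 of 1055 and 85 of 167 UMIs, *pcdh10a* 38 of 97 and *cdh11* 727 of 1176. At 44 hpf *cdh1* and *cdh5* kept 39 of 248 and 2 of 22 UMIs.

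**Figure D1:**
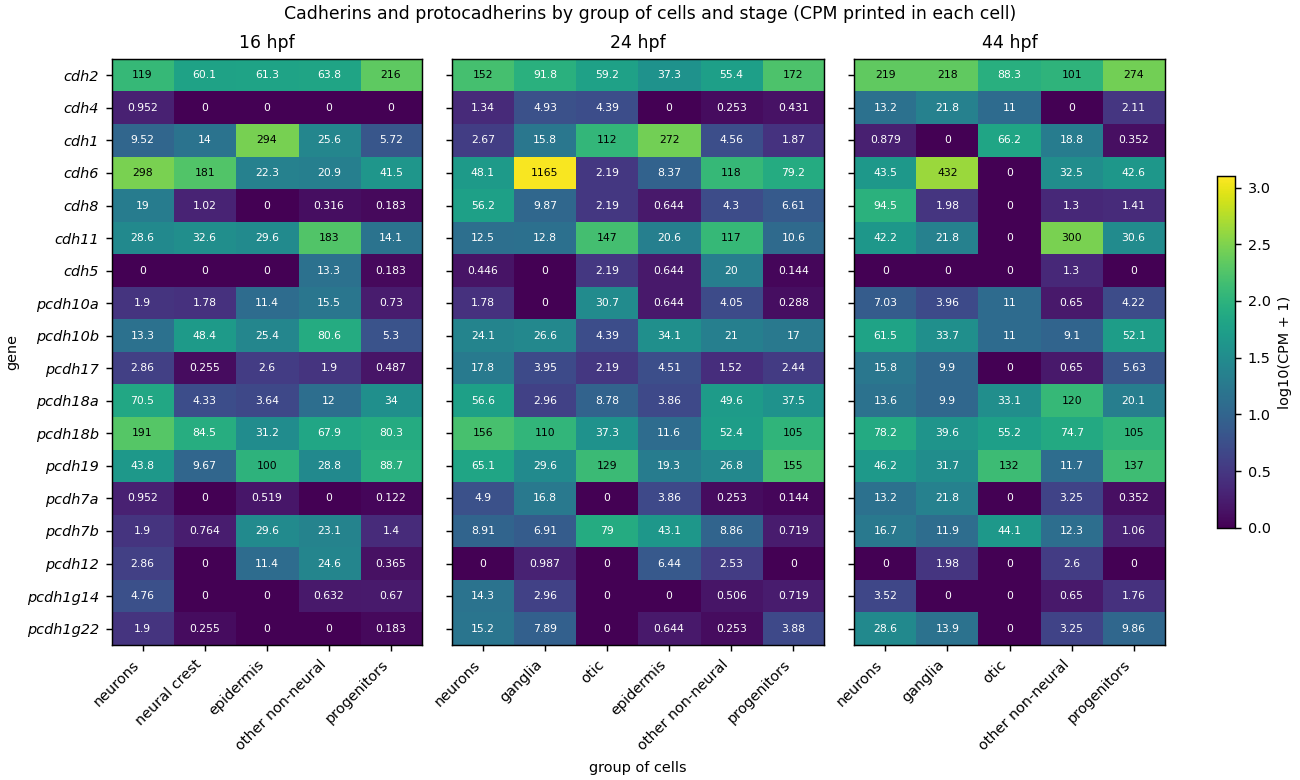
Heat map of the 18 named members (down) in the groups of cells at each stage (across), with CPM printed in each field and the colour on a log10 scale of CPM + 1. *cdh2* reached 216, 172 and 274 CPM in progenitor-like cells at 16, 24 and 44 hpf, *cdh1* 294 and 272 CPM in epidermis-like cells at 16 and 24 hpf, and *cdh6* 1165 and 432 CPM in cranial ganglia-like cells at 24 and 44 hpf.

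In progenitors, the classical cadherin *cdh2* and the δ-protocadherins *pcdh18b* and *pcdh19* were found at high levels at every stage, while *cdh8*, *pcdh10b* and the clustered *pcdh1g22* differed by at least 2-fold between both pairs of neighbouring stages. For *cdh8* and *pcdh1g22* this rested on few UMIs. *cdh2* had 216 (209 to 223) CPM at 16 hpf, 172 (163 to 182) CPM at 24 hpf and 274 (255 to 294) CPM at 44 hpf. With 2000 UMIs drawn from every cell, 31.8%, 29.6% and 38.7% of progenitors had a UMI of *cdh2* at the successive stages. With all UMIs these shares were 81.9%, 70.0% and 50.8%, the other way round in the order of stages, with a median progenitor of 10186, 8376 and 2802 UMIs. In epidermis-like cells, which depend on *cdh1*, the share at 2000 UMIs was 10.9% at 16 hpf and 6.47% at 24 hpf (median 8390 and 10491 UMIs), so *cdh2* in progenitors was above the level of cells of another type.

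At 24 hpf, 4 of 15 measured members were at least 2-fold higher in progenitors than at 16 hpf and 2 were lower, against 6.76% and 16.4% of all 10362 genes measured. The median ratio was 1.30 over the members and 0.864 over all genes. The type II cadherin *cdh8* had 46 UMIs and 6.61 CPM at 24 hpf, against 3 UMIs and 0.183 CPM at 16 hpf, a ratio of 36.2 (11.6 to 182). *pcdh1g22* had 27 UMIs and 3.88 CPM at 24 hpf and 3 UMIs and 0.183 CPM at 16 hpf, and *pcdh10b*, a δ-protocadherin known for axon outgrowth, 17.0 and 5.30 CPM with a ratio of 3.20 (2.41 to 4.28). *pcdh1a*, outside the named members and chosen after its values were seen, was 2.57-fold (1.40 to 4.73) higher. The 2 lower members were *cdh1*, with 1.87 CPM at 24 hpf against 5.72 CPM at 16 hpf, and, also chosen after its values were seen, *pcdh11*, with a ratio of 0.350 (0.089 to 1.00). *cdh6* and *pcdh19* lay under 2-fold, with ratios of 1.91 (1.70 to 2.14) and 1.74 (1.61 to 1.89), and *cdh2* was at 0.796 (0.745 to 0.851). When progenitors were taken from UMIs of *sox3* without *elavl3* or *elavl4* in place of clusters, *cdh1* had a ratio of 1.48, in the opposite direction.

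At 44 hpf, 4 of 11 measured members were at least 2-fold higher in progenitors than at 24 hpf and 1 was lower, against 9.01% and 20.8% of all 8111 genes measured, with a median ratio of 0.998 over the members and 0.842 over all genes. *pcdh10b* had 52.1 CPM at 44 hpf and 17.0 CPM at 24 hpf, a ratio of 3.07 (2.39 to 3.95), so it was higher at each later stage. *cdh11*, a type II cadherin best known from mesenchyme and bone, had 30.6 CPM at 44 hpf and 10.6 CPM at 24 hpf (ratio 2.88, 2.09 to 3.98), after a ratio of 0.757 between the 2 earlier stages. *pcdh1g22* and *pcdh17* were 2.54-fold (1.44 to 4.48) and 2.3-fold (1.09 to 4.85) higher. *cdh8* was lower again, with 4 UMIs and 1.41 CPM at 44 hpf against 6.61 CPM at 24 hpf (0.213, 0.0557 to 0.583). *cdh6* and *pcdh18a* were just short of 2-fold lower, at 0.538 (0.438 to 0.656) and 0.535 (0.394 to 0.715), and *pcdh18b* did not shift, with 105 CPM at both stages. The ratio of *pcdh17* was 1.55 with progenitors taken from UMIs of *sox3* and 1.83 as a mean over single cells. The make-up of the progenitor class differed between stages. At 16 hpf 377 of 1647 cells lay in the cluster led by *atoh1a* and *zic1*. At 24 hpf 365 and 180 of 773 lay in clusters led by *casz1* and *zic1* and by *atoh1a* and *nusap1*. Clusters of 175 and 135 cells with 7 and 11 progenitor markers were unnamed at 24 hpf. How far this make-up enters the ratios between stages was not tested.

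Progenitor clusters of the same stage differed in several members. At each of the 3 stages, *cdh6* was highest in 1 cluster and nearly missing from another. At 16 hpf it had 109 (99.2 to 120) CPM in the cluster led by *atoh1a* and *zic1*, dorsal genes of the rhombic lip, and 5.57 CPM in the cluster led by *cyp26b1* and *dbx1b*, genes of the intermediate hindbrain. At 24 hpf the cluster led by *atoh1a* and *nusap1* had 141 CPM and that led by *dbx1b* 3.20 CPM, a ratio of 43.9. At 44 hpf the highest level, 109 CPM, was in the cluster led by the mitosis genes *nusap1* and *kif11*, and the cluster led by *slc1a3b*, a glutamate transporter of radial glia, had no UMI (upper limit 11.2 CPM). *cdh11* ran the other way at 24 hpf, with 30.2 CPM in the *dbx1b* cluster and 1.56 CPM (3 UMIs) in the *atoh1a* cluster.

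*cdh2* varied much less, from 111 CPM (*eng2b* cluster) to 258 CPM (*egr2b* cluster, a gene of rhombomeres 3 and 5) at 16 hpf, from 139 to 206 CPM at 24 hpf and from 219 to 378 CPM at 44 hpf, the last in the *slc1a3b* cluster. *pcdh18a* was highest in the *eng2b* cluster at 16 hpf, with 64.0 CPM, and lowest in a cluster led by the posterior gene *hoxd4a*, with 1.91 CPM. *pcdh18b* had 150 CPM in the cluster led by *gsx2* and *ptf1a* at 44 hpf, dorsal genes of neuronal specification, and 12.1 CPM in the *slc1a3b* cluster. *pcdh19* was highest in the *dbx1b* clusters at 16 and 24 hpf, with 113 and 193 CPM, against lowest values of 35.6 and 124 CPM. The highest and the lowest cluster were chosen for their values, among 7, 3 and 4 clusters at 16, 24 and 44 hpf. These differences are thus descriptions, and the spread between clusters was not measured over all genes.

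In neurons, relative to progenitors of the same stage, the measured members that were at least 2-fold higher included *cdh6* and the *pcdh18* pair at 16 hpf, at 24 hpf *cdh8*, *pcdh17* and 2 clustered protocadherins, and at 44 hpf *cdh8*, *pcdh7a*, *pcdh7b* and *cdh4*. At 16 hpf most *cdh6* UMIs of neurons lay in cells with markers of cranial ganglia, and its ratio without those cells was 1.07. *pcdh19* was at least 2-fold lower in neurons at all 3 stages, though at 16 and 24 hpf it fell short of 2-fold under several alternatives. The ratios of *cdh2* also lay below 1. *cdh8* was under the limit of 30 UMIs at 16 hpf but already had 20 UMIs and 19.0 CPM in neurons there, against 3 UMIs and 0.183 CPM in progenitors, a ratio of 104 (30.9 to 548). Of the members measured, 5 of 10, 4 of 14 and 6 of 13 were at least 2-fold higher at 16, 24 and 44 hpf, against 15.0%, 21.4% and 21.4% of all genes, and 1 was lower at each stage, against 16.8%, 20.1% and 16.6%. Median ratios were 1.84, 1.49 and 1.38 over the members and 0.994, 1.02 and 1.08 over all genes.

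**Figure D2:**
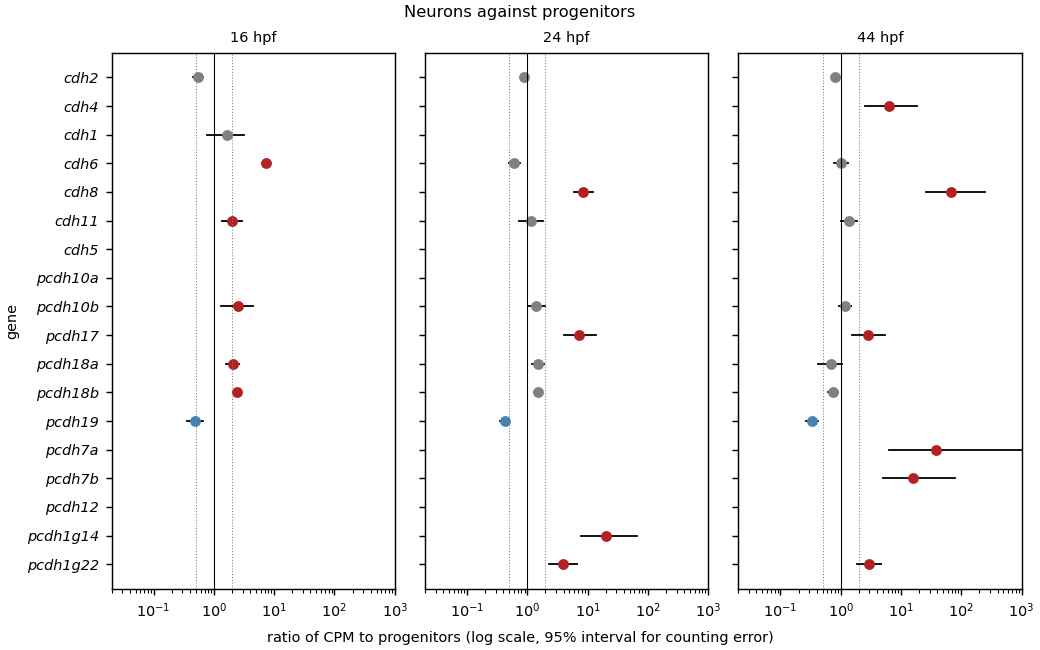
Ratio of CPM in neuron-like over progenitor-like cells for the named members with at least 30 UMIs, on a log axis with 95% counting intervals, at 16, 24 and 44 hpf. Red points are at least 2-fold higher in neurons (5, 4 and 6 members), blue points at least 2-fold lower (*pcdh19* at each stage), and the interval of *pcdh7a* at 44 hpf, up to 1528, runs past the axis.

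At 16 hpf *cdh6* had 313 UMIs in neuron-like cells, 298 CPM against 41.5 CPM in progenitors, a ratio of 7.18 (6.26 to 8.22). Markers of cranial ganglia, sensory neurons that form beside the hindbrain, moved with it: 8 of 10 had a UMI in these cells (*ntrk3a* and *p2rx3b* at 0), summing to 883.7 CPM, against 9.98 CPM in progenitors. This sum includes *neurod1*, a leading gene of the cluster that hindbrain neurons also express, so it does not by itself mark ganglia. In a split chosen after seeing the data, 34 neuron-like cells with at least 2 UMIs of these markers (*neurod1* left out) held 280 of the 313 *cdh6* UMIs, with 917 (813 to 1031) CPM. The other 88 neuron-like cells had 44.3 (30.5 to 62.2) CPM, a ratio of 1.07 to progenitors. At 24 hpf, when the ganglia formed a cluster of their own, *cdh6* had 48.1 CPM in neurons and 79.2 CPM in progenitors (0.608, 0.490 to 0.748), and at 44 hpf 43.5 and 42.6 CPM (1.02). Cranial ganglia-like cells had 1165 CPM (1181 UMIs) at 24 hpf and 432 CPM (218 UMIs) at 44 hpf. At 2000 UMIs per cell, 74.1% (65.2 to 81.8) and 43.1% (34.2 to 52.3) of them had a UMI of *cdh6*, with 91.4% and 54.0% at all UMIs (median 8313.5 and 3679 UMIs). Epidermis-like cells, where *cdh6* was low, had shares of 4.52% at 16 hpf and 2.16% at 24 hpf.

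The paralogues *pcdh18a* and *pcdh18b* had 70.5 and 191 CPM in neurons of 16 hpf, against 34.0 and 80.3 CPM in progenitors, with ratios of 2.07 (1.61 to 2.65) and 2.38 (2.04 to 2.77). Without the cells that held ganglia markers these ratios were 2.93 and 2.79, and among neurons *pcdh18b* had 111 (77.1 to 156) CPM in the cells with those markers and 224 (191 to 261) CPM in the others. The ratio of *pcdh18b* was 1.48 (1.30 to 1.69) at 24 hpf and 0.748 (0.618 to 0.904) at 44 hpf, so it lay above 1 at the 2 earlier stages and below 1 at the last. *pcdh18a* followed the same order, with 1.51 at 24 hpf and 0.679 at 44 hpf. The neuron-like class itself differed between stages in *sox3*, with 2261, 1767 and 487 CPM at 16, 24 and 44 hpf. Progenitors had 1756, 1589 and 2188 CPM of *sox3*, and the part of this difference in the ratios was not tested. *pcdh10b* was 2.52-fold (1.32 to 4.45) and *cdh11* 2.03-fold (1.34 to 2.98) higher in neurons at 16 hpf, on 14 and 30 UMIs in neurons. With the ganglia-marker cells left out, *pcdh10b* kept 2.28-fold while *cdh11* had a ratio of 1.53. With the stages clustered together *cdh6*, *cdh11* and *pcdh10b* were at 1.36, 1.94 and 1.81, and with neurons and progenitors taken from UMIs of *elavl3*, *elavl4* and *sox3*, *pcdh18b* was at 1.69.

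At 24 hpf *cdh8* had 126 UMIs in neurons and 46 UMIs in progenitors, 56.2 against 6.61 CPM, a ratio of 8.49 (6.01 to 12.2). *pcdh17*, a δ-protocadherin known from axon growth, had 17.8 and 2.44 CPM in neurons and progenitors, a ratio of 7.29 (4.04 to 13.7). Of the *pcdh1* cluster, *pcdh1g14* was 19.8-fold (7.67 to 65.2) higher, on 32 UMIs in neurons and 5 in progenitors, and *pcdh1g22* 3.90-fold (2.29 to 6.73). These 4 were measured with few molecules, and at 2000 UMIs per cell only *cdh8* among them kept 30 UMIs. For genes of the *pcdh1* cluster, counts from the 3′ end may also not tell members apart.

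At 44 hpf *cdh8* had 215 UMIs and 94.5 CPM in neurons, against 4 UMIs and 1.41 CPM in progenitors, a ratio of 67.1 (25.8 to 249). The δ-protocadherins *pcdh7a* and *pcdh7b* had 13.2 and 16.7 CPM in neurons and 1 and 3 UMIs in progenitors, with ratios of 37.5 (6.23 to 1528) and 15.8 (5.02 to 80.1). *cdh4* (R-cadherin, a classical cadherin of retina and brain) had 13.2 CPM in neurons and 2.11 CPM in progenitors, a ratio of 6.24 (2.56 to 18.3). Over all kept cells it had 1 UMI at 16 hpf, 17 at 24 hpf and 65 at 44 hpf. *pcdh1g22* and *pcdh17* were 2.90-fold (1.83 to 4.69) and 2.81-fold (1.52 to 5.42) higher in neurons. The ratio of *pcdh17* was 1.56 with the stages clustered together. The unnamed neural clusters of 44 hpf had 80.0 CPM of *cdh8*, nearer to neurons than to progenitors.

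*cdh2* and *pcdh19*, whose proteins are known to form a complex in zebrafish, were the members with ratios below 1 in neurons at every stage. *pcdh19* had 43.8, 65.1 and 46.2 CPM in neurons of 16, 24 and 44 hpf and 88.7, 155 and 137 CPM in progenitors, with ratios of 0.494 (0.360 to 0.662), 0.421 (0.352 to 0.501) and 0.337 (0.269 to 0.419). It was the member at least 2-fold lower at each stage, though it was at 0.974 at 16 hpf and 0.683 at 24 hpf with cells classed by UMIs of *sox3*, *elavl3* and *elavl4*, and at 0.606 at 16 hpf without the cells with ganglia markers. *cdh2* had 119, 152 and 219 CPM in neurons and 216, 172 and 274 CPM in progenitors, with ratios of 0.550 (0.457 to 0.658), 0.885 (0.783 to 0.999) and 0.798 (0.712 to 0.894). With 2000 UMIs per cell, 27.9%, 22.8% and 35.0% of neurons had a UMI of *cdh2*.

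Cells of the neural clusters of 44 hpf with a UMI of *elavl3* or *elavl4* were then split by transcription factors of known classes. They came from progenitor-like and unnamed neural clusters as well as neuron-like ones, and are called gated neurons here. Gates were named after their genes (barhl, tlx, dmbx1, otp, pax2, tal-gata, motor and atoh1). Each held 35 to 337 cells and was compared with all other gated neurons. *cdh6* marked the atoh1 and motor gates, *cdh8* and *cdh11* the otp gate and *cdh11* the tal-gata gate, whereas *cdh2* kept within 2-fold over all gates. In each gate 12 members were measured, and over the 8 gates there were 11 ratios at least 2-fold higher and 18 at least 2-fold lower among 96, against 5.02% and 12.2% over all genes. Median ratios in the gates ran over 0.709 to 1.21 for the members and 0.797 to 1.07 for all genes. Gates share the cells they are compared with, so their ratios are not independent of each other. Of the *cdh6* UMIs over the gates, 51 of 92 lay in the atoh1 gate, and of the *cdh8* UMIs 113 of 187 in the otp gate. Ratios of these members in the other gates were thus taken against levels set largely by those gates.

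**Figure D3:**
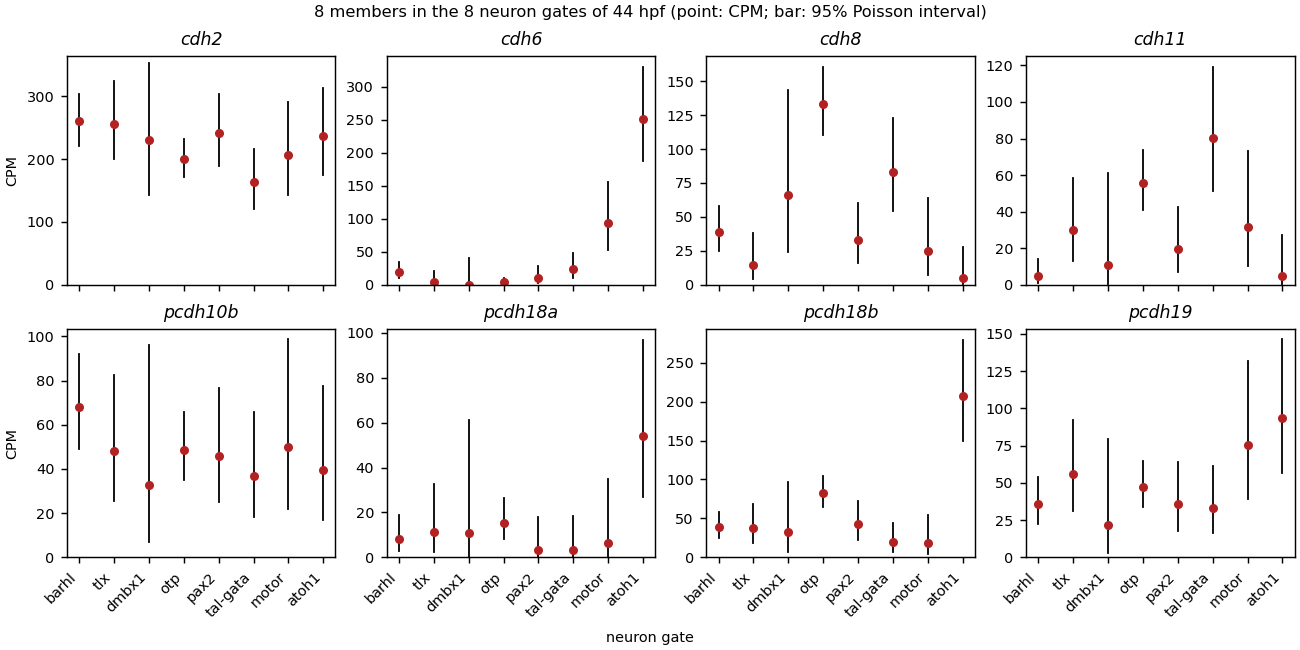
CPM of 8 members in the 8 neuron gates of 44 hpf, 1 panel a member, with 95% Poisson intervals as bars. *cdh6* is highest in the atoh1 gate (251 CPM) and low in the otp gate (3.55 CPM) and the dmbx1 gate (no UMI), *cdh8* is highest in the otp gate (134 CPM), and *cdh2* lies between 164 and 260 CPM.

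In the atoh1 gate (66 cells), which takes cells with *atoh1a*, *atoh1b* or *atoh1c*, the proneural genes of the rhombic lip, 4 of 12 members were at least 2-fold higher and 3 lower, against 9.22% and 28.1% of all 4902 genes measured. *cdh6* had 51 UMIs and 251 CPM there, against 41 UMIs and 15.8 CPM in the other gated neurons, a ratio of 15.9 (10.3 to 24.5). *pcdh18a*, *pcdh18b* and *pcdh19* had 54.2, 207 and 93.6 CPM in the gate and 9.66, 49.8 and 43.3 CPM outside it, with ratios of 5.61 (2.49 to 11.8), 4.15 (2.86 to 5.92) and 2.16 (1.25 to 3.54). *cdh8*, *cdh11* and *pcdh1g22* had 1 UMI each in the gate, with ratios of 0.0685 (0.00173 to 0.387), 0.136 (0.0034 to 0.774) and 0.177 (0.00442 to 1.02). Markers of neural progenitors moved with these members: all 14 were present in the atoh1 gate and summed to 9826 CPM, against 658.5 CPM (dmbx1) to 2578 CPM (pax2) in the other 7 gates, and the list of neuron markers summed to 2344 CPM against 6835 CPM or more. Of these markers, *sox3* had 2428 CPM in the gate and 2188 CPM in progenitor-like cells of 44 hpf. The part of progenitor-like cells in the ratios was not tested. The ratio of *pcdh19* was 1.66 with no cells removed.

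The otp gate (337 cells, *otpa* or *otpb*) had 3 members higher and 1 lower, against 2.94% and 4.26% of all genes. *cdh8* had 113 UMIs and 134 CPM in the gate, against 74 UMIs and 38.0 CPM outside, a ratio of 3.51 (2.60 to 4.77), and *cdh11* 55.6 and 24.7 CPM, a ratio of 2.25 (1.47 to 3.44). *cdh6* was nearly absent, with 3 UMIs in the gate and 89 outside (0.0775, 0.0157 to 0.234). *pcdh7b* had 14 UMIs in the gate and 16 outside, a ratio of 2.01 (0.910 to 4.40) that was 1.32 with gates set at 1 UMI. *cdh11* was at 1.61 with 2000 UMIs per cell.

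In the motor gate (74 cells, *isl1*, *isl2a* or *isl2b*, genes of motor and some sensory neurons) 1 member was higher and 3 lower, against 6.65% and 14.8% of all genes. *cdh6* had 15 UMIs and 94.0 CPM, against 29.3 CPM in the other gates (3.21, 1.72 to 5.64), while *cdh8* and *pcdh18b* had 25.1 and 18.8 CPM, against 69.5 and 63.8 CPM (0.361 and 0.295). The third lower member, *pcdh18a*, rested on 1 UMI. In the tal-gata gate (116 cells, genes of inhibitory neurons) 1 member was higher and 2 lower, against 3.47% and 11.9%: *cdh11* had 24 UMIs and 80.1 CPM against 28.5 CPM (2.81, 1.69 to 4.52), *pcdh18b* 20.0 against 66.2 CPM (0.302), and *pcdh18a* 1 UMI. *cdh11* and *pcdh18b* thus differed in opposite directions in this gate, although *pcdh18b* was at 0.885 with gates set at 1 UMI.

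The 4 remaining gates had few members above the others. In the barhl gate (283 cells) none of 12 was higher and 1 was lower, against 2.06% and 9.81%, and this was *cdh11*, with 3 UMIs and 4.87 CPM against 42.3 CPM (0.115, 0.0233 to 0.347). In the tlx gate (95 cells) none was higher and 3 were lower, against 3.59% and 9.79%: *cdh6* with 1 UMI (0.103, 0.00258 to 0.588), *cdh8* with 14.8 against 72.6 CPM (0.205, 0.0551 to 0.533) and *pcdh7b* with 1 UMI. In the pax2 gate (114 cells) 1 was higher and 3 were lower, against 3.71% and 9.18%, namely *cdh4* with 22.8 against 9.66 CPM (2.36, 0.860 to 5.66), and *cdh6*, *cdh8* and *pcdh18a* at 0.273, 0.458 and 0.232, the last on 1 UMI. In the dmbx1 gate (35 cells) 1 was higher and 2 were lower, against 8.53% and 9.98%, with *pcdh1g22* on 5 UMIs (2.18, 0.685 to 5.34) and *cdh11* and *pcdh19* on 1 and 2 UMIs. *cdh6* had no UMI in these 35 cells (upper limit 40.5 CPM).

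Across the 8 gates *cdh2* ranged from 164 (121 to 216) CPM in the tal-gata gate to 260 (221 to 303) CPM in the barhl gate, a spread of less than 2-fold. *pcdh10b* also kept within 2-fold of its median of 47.0 CPM in the gates, against a median of 14.6 CPM for *cdh6*, 35.8 CPM for *cdh8*, 24.6 CPM for *cdh11*, 38.0 CPM for *pcdh18b* and 41.6 CPM for *pcdh19*. Of 2014 cells with a UMI of *elavl3* or *elavl4*, 1131 entered 1 gate, 174 fitted more than 1 gate and 709 none, and the V2 gate, with 11 cells, was not compared.

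Neural crest-like cells of 16 hpf, the migratory cells that leave the dorsal neural tube, had less *cdh2*, *pcdh18a* and *pcdh19* than progenitors and more *cdh6*, *cdh11*, *pcdh10b* and *cdh1*. Of 11 members measured, 5 were at least 2-fold higher and 5 lower, against 8.38% and 10.2% of all 10167 genes, and the median ratio was 1.05 over the members and 1.05 over all genes. *cdh6* had 709 UMIs and 181 CPM in crest and 41.5 CPM in progenitors, a ratio of 4.35 (3.91 to 4.84). *pcdh10b* had 48.4 against 5.30 CPM, a ratio of 9.13 (7.05 to 11.9), and *pcdh1b*, a δ-protocadherin outside the named members and chosen after its values were seen, 6.11 against 0.67 CPM (9.13, 4.30 to 20.6). *cdh11* and *cdh1* were 2.32-fold (1.85 to 2.89) and 2.45-fold (1.72 to 3.45) higher.

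*cdh2* had 60.1 CPM in crest, against 216 CPM in progenitors, a ratio of 0.278 (0.242 to 0.317). *pcdh18a* and *pcdh19* had 4.33 and 9.67 CPM, against 34.0 and 88.7 CPM (0.127, 0.0737 to 0.206, and 0.109, 0.0769 to 0.150), whereas *pcdh18b*, with 84.5 and 80.3 CPM, was at 1.05, so the *pcdh18* pair parted in crest. The 2 other lower members, *pcdh11.1* and *cdh7*, named after their values were seen, were at 0.322 and 0.285 on few UMIs. At 2000 UMIs per cell, 26.1% of crest-like cells and 6.62% of progenitors had a UMI of *cdh6*, and the share in epidermis-like cells was 4.52%, with a median crest-like cell of 11327 UMIs. Crest markers summed to 1816 CPM in crest-like cells and 129 CPM in progenitors, with 8 of 10 present and *mitfa* and *ltk* at 0. The same markers had named these cells, so the direction of this difference was fixed by the naming.

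In a list of regulators of epithelial-mesenchymal transition, which include known repressors of cadherins, 5 of 8 genes were at least 2-fold higher in crest. None was lower, against 8.38% and 10.2% of all genes. Of the 5, *snai1b* and *twist1a* had served as crest markers, so that their part of the count was fixed by the naming. *twist1b*, *snai2* and *snai1a* were 54.5-fold, 11.3-fold and 8.37-fold higher. The others, *zeb1a*, *zeb1b* and *zeb2a*, were at 0.634, 0.770 and 1.11. The same 5 genes were also at least 2-fold higher in other non-neural cells of 16 hpf than in progenitors, against 14.1% of all genes. Of these, *twist1b* had served as a marker of head mesenchyme, the name of 196 of these 354 cells. Its part of that count was thus set in advance by the naming. There *twist1b*, *snai2* and *snai1a* were at 75.5, 29.8 and 46.2, while *zeb2a* was at 0.328. In crest, other genes of the cadherin superfamily went the other way, with none of 8 higher and 5 at least 2-fold lower, against 8.38% and 10.2% of all genes. At 24 and 44 hpf no crest-like cluster was found, and a gate of 2 UMIs over *sox10*, *foxd3*, *tfec* and *mitfa*, chosen after seeing the data, took 369, 39 and 20 non-neural cells of the 3 stages. *cdh6* had 172, 221 and 76.8 CPM in that gate and *pcdh10b* 48.2, 69.2 and 32.9 CPM, the values of 44 hpf resting on 7 and 3 UMIs.

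Epidermis-like cells had more *cdh1* (E-cadherin, the cadherin of epithelial adherens junctions) and *pcdh7b* than progenitors at both stages, and less *cdh2*, *pcdh18a* and *pcdh18b*. At 16 hpf 5 of 12 measured members were at least 2-fold higher and 4 lower, against 19.3% and 8.91% of all genes, and at 24 hpf 3 of 10 were higher and 6 lower, against 17.9% and 15.9%. Median ratios were 0.811 and 0.165 over the members and 1.05 and 0.957 over all genes. *cdh1* had 566 UMIs and 294 CPM at 16 hpf, against 94 UMIs and 5.72 CPM in progenitors, a ratio of 51.4 (41.2 to 64.6). At 24 hpf it had 422 UMIs and 272 CPM, against 13 UMIs and 1.87 CPM, a ratio of 145 (84.1 to 275). With 2000 UMIs per cell 44.3% and 36.0% of epidermis-like cells had a UMI of *cdh1*, and 1.34% and 0.647% of progenitors.

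Markers of the otic vesicle, an epithelium beside the hindbrain, moved with this class, with 8 of 10 present at 16 hpf (*tecta* and *otogl* at 0), summing to 1153 CPM at 16 hpf and 367 CPM at 24 hpf, against 54.2 and 29.9 CPM in progenitors and 6761 CPM in otic-like cells of 24 hpf. Leaving out cells with at least 2 UMIs of these markers, a choice made after seeing the data, kept 70 of 221 and 50 of 139 cells. *cdh1* was then 55.4-fold and 161-fold higher than in progenitors, but *cdh11*, which had a ratio of 2.11 (1.55 to 2.82) at 16 hpf with all cells, was at 0.683. It had 37.0 (27.6 to 48.5) CPM in epidermis-like cells with otic markers and 9.61 (3.12 to 22.4) CPM in those without, and 147 CPM in otic-like cells of 24 hpf. *pcdh7b* had 29.6 CPM in all epidermis-like cells at 16 hpf, against 1.40 CPM in progenitors (21.1, 12.8 to 36.0), and 43.1 against 0.719 CPM at 24 hpf (60.0, 24.5 to 191). Without the cells with otic markers its ratios were 13.7 and 68.2.

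*pcdh10a* and *pcdh10b* had 11.4 and 25.4 CPM in epidermis-like cells of 16 hpf, against 0.730 and 5.30 CPM in progenitors, ratios of 15.6 (7.41 to 34.7) and 4.81 (3.32 to 6.90). At 24 hpf *pcdh10b* was at 2.01 (1.43 to 2.80) and *pcdh10a* had 1 UMI. The kept cells of 24 hpf held only 38 of the 97 *pcdh10a* UMIs of that library. With no removal of cells *pcdh10a* was at 2.01 at 16 hpf, and with finer clusters *pcdh10b* was at 0.392 at 24 hpf. *pcdh19* differed between the stages, with 100 CPM at 16 hpf against 88.7 CPM in progenitors (1.13), and 19.3 CPM at 24 hpf against 155 CPM (0.125). At 16 hpf 150 of its 193 UMIs lay in the 151 cells with otic markers, at 107 (90.4 to 125) CPM, against 82.6 (59.8 to 111) CPM in the cells without them, and the part of otic cells was not tested. *cdh2* was at 0.283 (0.234 to 0.340) and 0.217 (0.164 to 0.282) at the 2 stages, *pcdh18b* at 0.388 and 0.111, *pcdh18a* at 0.107 and 0.103, and *cdh6* at 0.538 and 0.106. At 2000 UMIs per cell, *cdh1* and *cdh2* were found together in 10 of 221 epidermis-like cells at 16 hpf and 1 of 139 at 24 hpf, where 44.3% and 36.0% had *cdh1* and 10.9% and 6.47% had *cdh2*.

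**Figure D4:**
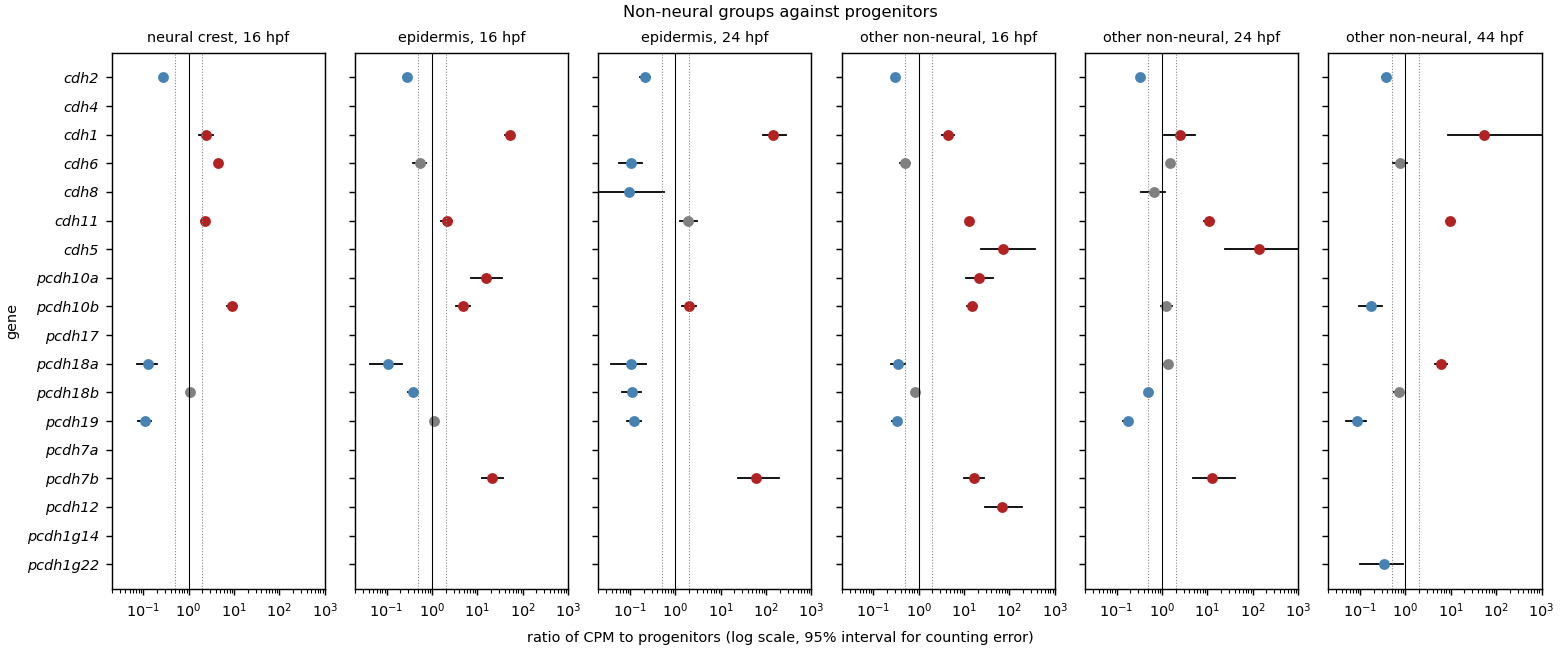
Ratio of CPM in neural crest-like, epidermis-like and other non-neural cells over progenitor-like cells of the same stage, on a log axis with 95% counting intervals. Only named members with at least 30 UMIs are drawn, so measured members outside them, such as *pcdh1b* in crest, are not shown. Red points are at least 2-fold higher and blue points at least 2-fold lower than in progenitors; *cdh1* in epidermis reaches 51.4 and 145, *cdh2* lies at 0.217 to 0.370 in every panel, and the upper intervals of *cdh5* at 24 hpf and *cdh1* at 44 hpf in other non-neural cells run past the axis.

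Catenins and desmosome genes, the partners of cadherins inside the cell, moved in epidermis as well. At 16 and 24 hpf 3 of 5 measured catenins were higher, against 19.3% and 17.9% of all genes, *jupa* (plakoglobin) 9.04-fold and 8.88-fold, *ctnnd1* (p120) 4.51-fold and 4.43-fold and *ctnna1* 2.64-fold and 2.1-fold, and *ctnnd2b*, a neural p120 relative, was lower at 0.244 and 0.166. All 8 measured desmosome partners were at least 2-fold higher at both stages, against the same shares, with median ratios of 23.8 and 47.9. In neurons the catenins differed again, with *ctnna2*, the neural alpha-catenin, 39.5-fold higher at 24 hpf and 5.16-fold higher at 44 hpf, and *ctnna1* at 0.370 and 0.150. At 44 hpf 2 of 7 catenins were higher in neurons and 4 lower, against 21.4% and 16.6% of all genes. Of the other cadherin superfamily, 5 of 9 genes were higher in neurons and 3 lower at 24 hpf, and 3 of 7 and 2 at 44 hpf, against 21.4% higher at each stage and 20.1% and 16.6% lower over all genes, led by the calsyntenin gene *clstn3* with ratios of 102 and 43.3. In a list of junction partners 3 of 7 genes were higher in epidermis at 16 hpf and 5 of 7 at 24 hpf, against 19.3% and 17.9% of all genes, *tjp3* by 16.8-fold and 43.7-fold.

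The cldni gate, non-neural cells with at least 2 UMIs of the claudin gene *cldni* (a limit set after seeing the data), gave 91, 70 and 7 cells at 16, 24 and 44 hpf and carried *cdh1* to the stage at which no epidermis-like cluster was found. *cdh1* had 415, 311 and 642 CPM in these cells, the last from 19 UMIs, and 59.3%, 40.0% and 71.4% of them had a UMI of *cdh1* at 2000 UMIs per cell. *pcdh19* had 172 CPM in the cldni gate at 16 hpf, 18.2 CPM at 24 hpf and no UMI in the 7 cells of 44 hpf. Otic-like cells also had *cdh1*, with 112 CPM at 24 hpf and 66.2 CPM (6 UMIs) at 44 hpf, together with *pcdh19* at 129 and 132 CPM and, at 24 hpf, *pcdh7b* at 79.0 CPM and *pcdh10a* at 30.7 CPM.

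In the other non-neural cells *cdh11* was higher than in progenitors at all 3 stages, by 13.0-fold (11.1 to 15.2), 11.0-fold (8.60 to 14.3) and 9.78-fold (7.76 to 12.4), with 183, 117 and 300 CPM against 14.1, 10.6 and 30.6 CPM. *cdh2* and *pcdh19* were lower throughout, while *cdh5*, *pcdh12*, *pcdh10a*, *pcdh10b* and *pcdh18a* were high at some stages only. At 16 hpf 7 of 14 measured members were at least 2-fold higher and 5 lower, against 14.1% and 8.02% of all genes, at 24 hpf 4 of 11 and 3, against 16.1% and 8.98%, and at 44 hpf 3 of 9 and 4, against 17.3% and 16.5%. Median ratios were 1.94, 1.32 and 0.715 over the members and 1.07, 1.05 and 0.935 over all genes. The make-up of this group differed between stages, with 196 head mesenchyme-like, 134 cardiopharyngeal mesoderm-like and 24 unnamed cells at 16 hpf, 245 head mesenchyme-like and 139 unnamed at 24 hpf, and 206 and 186 at 44 hpf. Head mesenchyme-like cells alone had 182, 153 and 465 CPM of *cdh11* at the successive stages, and cardiopharyngeal mesoderm-like cells 198 CPM.

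*pcdh10b* had 80.6 CPM in other non-neural cells of 16 hpf, against 5.30 CPM in progenitors, a ratio of 15.2 (11.9 to 19.6), and 9.10 CPM at 44 hpf, against 52.1 CPM, a ratio of 0.175 (0.0932 to 0.302). Head mesenchyme-like cells alone had 94.3, 10.5 and 7.27 CPM of it at the successive stages. *pcdh18a* ran in the opposite order, with 12.0 against 34.0 CPM at 16 hpf (0.353, 0.247 to 0.491), 49.6 against 37.5 CPM at 24 hpf (1.32, 1.09 to 1.60) and 120 against 20.1 CPM at 44 hpf (5.96, 4.41 to 8.17). In head mesenchyme-like cells alone it had 19.0, 65.0 and 144 CPM. *pcdh18b* stayed nearer to progenitors, with ratios of 0.845, 0.50 and 0.715, and was at 0.553 at 24 hpf without the cluster led by *tyrp1b* and *gch2*. *pcdh10a* was 21.2-fold (11.1 to 43.8) higher at 16 hpf and nearly all of it lay in cardiopharyngeal mesoderm-like cells, with 48 of 49 UMIs and 39.4 CPM, against 0.542 CPM in head mesenchyme-like cells. *pcdh7b* was 16.5-fold (10.2 to 27.6) higher at 16 hpf and 12.3-fold (4.81 to 40.3) at 24 hpf.

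*cdh5* (VE-cadherin, the cadherin of endothelial junctions) had 42 UMIs and 13.3 CPM in other non-neural cells of 16 hpf, against 3 UMIs in progenitors (72.7, 23.2 to 366), and 79 UMIs and 20.0 CPM at 24 hpf, against 1 UMI (139, 24.3 to 5562). At 24 hpf all but 1 of these UMIs lay in unnamed clusters. Without the cluster led by *tyrp1b* and *gch2*, 42 cells, *cdh5* was at 5.98 and under 30 UMIs. This unnamed cluster was mixed, with 7 enriched markers of vasculature and 4 of neural crest. Its leading genes included *cldn5b* and *clec14a* as well as *foxd3*. It was not split on its own, and the gate below takes cells from all non-neural clusters. In a gate of at least 3 UMIs over 7 endothelial genes, chosen after seeing the data, *cdh5* had 170, 81.0 and 42.7 CPM in 24, 74 and 9 cells, and 29.2%, 13.5% and 11.1% of them had a UMI at 2000 UMIs per cell, against 0.0607%, 0% and 0% of progenitors. All kept cells of 44 hpf together held only 2 UMIs of *cdh5*. *pcdh12*, a protocadherin first known from endothelium, had 78 UMIs and 24.6 CPM at 16 hpf, against 6 UMIs and 0.365 CPM in progenitors (67.5, 29.6 to 189). It was spread more widely than *cdh5*, with 38.6 CPM in cardiopharyngeal mesoderm-like cells, 15.7 CPM in head mesenchyme-like cells, 12.1 CPM in the endothelial gate (only 3 UMIs) and 11.4 CPM in epidermis-like cells.

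*cdh1* was at 4.47 (3.28 to 6.09), 2.44 (1.13 to 5.41) and 53.5 (8.88 to 2187) in other non-neural cells of 16, 24 and 44 hpf. Epidermis markers moved with it, summing to 731, 1361 and 4511 CPM in these cells, against 307, 435 and 334 CPM in progenitors and 14966 and 31517 CPM in epidermis-like cells of 16 and 24 hpf. At 44 hpf 28 of the 29 *cdh1* UMIs lay in the unnamed cluster led by *hbbe1.2* and *hbbe1.1*, where epidermis markers reached 7958 CPM, and without that cluster the ratio was 3.44 and under 30 UMIs. *cdh2* was at 0.295 (0.255 to 0.340), 0.322 (0.277 to 0.372) and 0.370 (0.309 to 0.440), and *pcdh19* at 0.324, 0.174 and 0.0854. With no cells removed *pcdh19* was at 0.756 at 16 hpf.

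The clustered protocadherins of the *pcdh1* and *pcdh2* clusters were found at low counts per gene and, summed over the *pcdh1* cluster, were highest in neurons at 16 and 24 hpf and, at 44 hpf, in the unnamed neural clusters (76.6 CPM) and in neurons. Many members of a cluster share their last exons, so counts from the 3′ end may miss them or not tell them apart. The sums over each cluster are therefore given, but they would not bring back missed counts, and how many were missed was not tested. The *pcdh1* cluster had 27.6, 65.5 and 62.9 CPM in neurons of 16, 24 and 44 hpf, against 4.87, 12.1 and 31.3 CPM in progenitors, with ratios of 5.67 (3.57 to 8.77), 5.43 (4.12 to 7.18) and 2.01 (1.53 to 2.64). Without *pcdh1g14* and *pcdh1g22*, its members with the most UMIs, these were 5.21, 4.83 and 1.56, and 12, 17 and 17 of its 21 members had a UMI in neurons. The *pcdh2* cluster had 6.67, 15.6 and 11.9 CPM in neurons and 1.16, 1.58 and 7.74 CPM in progenitors, with ratios of 5.76 (2.05 to 14.3), 9.86 (4.90 to 21.5) and 1.53 (0.841 to 2.82).

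**Figure D5:**
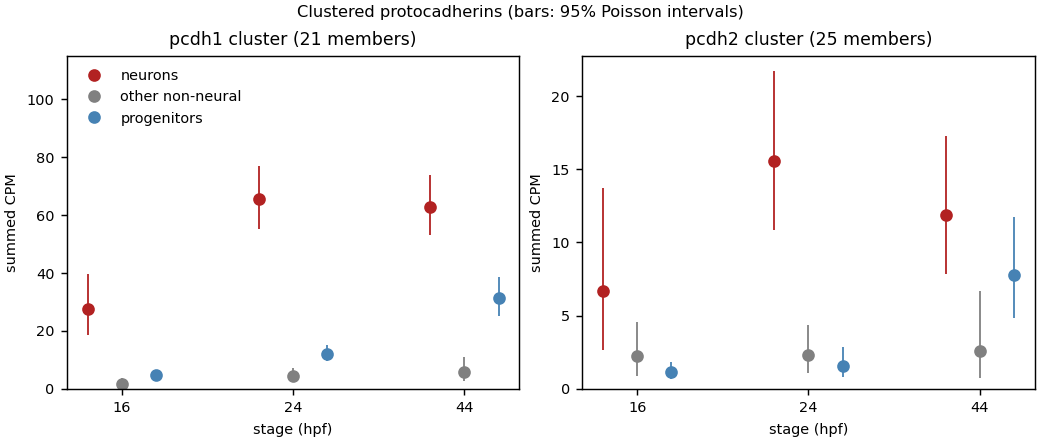
Summed CPM of the 21 *pcdh1* and 25 *pcdh2* cluster members in neuron-like, other non-neural and progenitor-like cells at 16, 24 and 44 hpf, with 95% Poisson intervals. The *pcdh1* sum in neurons is 27.6, 65.5 and 62.9 CPM and lies above progenitors (4.87, 12.1 and 31.3 CPM) at each stage.

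In progenitors the *pcdh1* cluster was 2.48-fold (1.80 to 3.41) higher at 24 over 16 hpf and 2.59-fold (1.90 to 3.54) at 44 over 24 hpf. The *pcdh2* cluster was at 1.37 (0.588 to 3.02), with an interval on both sides of 1, and then at 4.90 (2.28 to 11.2). The neuronal gene *elavl3* had 42.1, 114.7 and 404.5 CPM in progenitor-like cells of 16, 24 and 44 hpf. The part of neuronal cells within this class in the ratios between stages was not tested. Outside the neural cells the *pcdh1* cluster was lower than in progenitors, at 0.213 in epidermis of both stages, at 0.324, 0.377 and 0.187 in other non-neural cells of the 3 stages and at 0.523 (0.241 to 1.01) in crest. The *pcdh2* cluster, on 3 to 9 UMIs in each of these groups, was at 1.35 and 2.04 in epidermis of 16 and 24 hpf, at 1.91, 1.44 and 0.336 in other non-neural cells and at 1.32 in crest, and its interval lay apart from 1 only for the 0.336 of 44 hpf (0.0841 to 0.988). Each clustered gene outside *pcdh1g14* and *pcdh1g22* had at most 98 UMIs over all cells of the *pcdh1* cluster and 55 of the *pcdh2* cluster.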

How the data were processed

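The authors deposited, for each of the 3 libraries (10x Chromium, Single Cell 3′ version 2), raw counts of UMIs per gene and cell, made with Cell Ranger from GRCz10 and the gene models of Ensembl 89, without normalisation. The version of Cell Ranger is not given in the sources used here. The cluster and bulk data of the study were not analysed here, and no column belonged to other samples (0). The members, comparisons and gene lists were chosen with earlier results of these data known.

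Cells whose UMIs, genes or mitochondrial share lay beyond 3 median absolute deviations were left out (204, 231 and 432). Each stage was clustered in R 4.3.3 with Seurat 5.3.0 and Matrix 1.6.5 (2000 variable genes without 12, 11 and 9 members, scale factor 10000, 30 components, 20 neighbours, resolutions 0.7, 1.2 and 1, seed 1). Markers were taken as enriched in a cluster when found in at least 10% of cells and when CPM + 5 exceeded that of the other cells by 2-fold (tissues) or 1.5-fold (neural classes). A name needed at least 3 markers, or 2 at the 1.5-fold limit for progenitors, and no larger number of another class's markers among the leading 10 genes. The progenitor-like clusters led by *casz1* at 24 hpf (365 cells) and by *eng2b* at 16 hpf (56 cells) had 2. These limits were set after seeing clusters. Scrublet in scanpy 1.11.5 called 0.233% of cells, which was taken as not having worked, so no doublets were removed.

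UMIs were summed over cells with Python 3.11.15, numpy 2.4.6, scipy 1.17.1, pandas 2.3.3 and anndata 0.12.19, with figures from matplotlib 3.10.9. Intervals at 95% are Clopper-Pearson for shares, exact Poisson for CPM and, for ratios, exact conditional binomial. Members with 0 UMIs in a group entered medians at the limit of 3 UMIs. A cell entered a gate with at least 2 UMIs of its genes if it met the limit of no other gate. The pax2 gate also needed no UMI of *otpa* or *otpb*, and gates needed 20 cells to be compared. Named with values were members with at least 10 CPM and 20 UMIs in some group, others only by counts unless said. The calculation of ratios was tested on simulated data. Alternatives were no removal of cells, stages clustered together (resolution 0.8), resolutions multiplied by 1.5, 2000 UMIs per cell, mean CPM of single cells, 10 UMIs, removal of the highest Scrublet scores (0.8% for each 1000 cells), classes from UMIs and gates at 1 UMI. Those that counted unnamed clusters by their neural markers or left out a cluster or cells with ganglia or otic markers were chosen after seeing the data.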

Additional observations from a re-analysis of the deposited data

Results flagged for a closer look

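A set of 4 members had effects in opposite directions at different stages, each with intervals on either side of 1, and since every stage is 1 library the difference between stages was not tested. The ratio of *cdh6* in neurons over progenitors was 7.18 at 16 hpf and 0.608 at 24 hpf. Of the 313 *cdh6* UMIs in neurons of 16 hpf, 280 lay in the 34 cells with markers of cranial ganglia, and without those cells the ratio was 1.07. *pcdh18b* had ratios of 2.38, 1.48 and 0.748 in neurons over progenitors at 16, 24 and 44 hpf, and without the cells with ganglia markers its ratio at 16 hpf was 2.79, as it had 111 CPM in those cells and 224 CPM in the other neurons. The progenitor marker *sox3* had 2261, 1767 and 487 CPM in neurons of the 3 stages, and its part in these ratios was not tested. In the other non-neural cells over progenitors, *pcdh10b* had ratios of 15.2 at 16 hpf and 0.175 at 44 hpf, and *pcdh18a* 0.353, 1.32 and 5.96 at 16, 24 and 44 hpf. The make-up of these cells differed between stages. Within head mesenchyme-like cells alone, *pcdh10b* had 94.3, 10.5 and 7.27 CPM and *pcdh18a* 19.0, 65.0 and 144 CPM, the same order of stages.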

How the results depend on the processing

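Of 104 ratios of members past 2-fold, 48 were measured and past it under every alternative run for them. Of 937 values under the alternatives 812 stayed measured and past 2-fold in the same direction, 52 were still past 2-fold but under the minimum of UMIs, 66 were no longer past 2-fold and 7 turned round. The values that turned were those of *cdh11* in epidermis at 16 hpf with no removal of cells (0.852), with stages clustered together (0.747) and without cells with otic markers (0.683), *pcdh10b* in epidermis at 24 hpf with finer resolutions (0.392), *cdh1* in progenitors at 24 over 16 hpf with classes from UMIs (1.48), *pcdh18a* in the motor gate at 2000 UMIs (1.01) and *pcdh7b* in the tlx gate with gates of 1 UMI (1.01). Of 112 counts and shares under the alternatives 24 moved, the counts by over 1.5 times. With no removal of cells neurons at 24 hpf had 10 in place of 5, with stages clustered together neurons at 16 hpf had 3 in place of 6, and with finer resolutions progenitors at 44 over 24 hpf had 8 in place of 5. At 2000 UMIs per cell, which leaves fewer members with 30 UMIs, the counts were 1 in place of 6 for progenitors at 24 over 16 hpf, 2 in place of 5 and 3 in place of 7 for neurons at 24 and 44 hpf, 4 in place of 9 for epidermis at 16 hpf, 6 in place of 12 and 3 in place of 7 for other non-neural cells at 16 and 24 hpf, and 19 in place of 29 for the gates. With a minimum of 10 UMIs they were 11 and 13 for progenitors at the later pairs of stages, 15, 11 and 14 for neurons at 16, 24 and 44 hpf, 18 and 12 for other non-neural cells at 24 and 44 hpf and 52 for the gates. With classes from UMIs they were 3 for progenitors at 24 over 16 hpf and 2 for neurons at 16 hpf, and without the cluster led by *tyrp1b* and *gch2* 4 for other non-neural cells at 24 hpf. The cause was not tested for the settings other than the number of UMIs. The share of progenitors with a UMI of *cdh2* was 81.9%, 70.0% and 50.8% with all UMIs. No paired analysis was possible because each stage is 1 library and no comparison rests on replicates. At 44 hpf a median of 2727 UMIs per cell limits the precision for rare members and small gates.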

Other observations

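The tables hold 4 entries in upper case with cadherin names that the rule did not take. *PCDH20* had 9 UMIs over the 3 libraries, *CDH22* 4 and *CDH19* 2, and *CDH7 (1 of many)* had none, so together they add little to the 40940 UMIs of the members.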
